A study of Mus musculus with 2 samples.

Results

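The Nodal pathway genes described here are the members of a named set of 10: the ligand genes Nodal and Gdf3, the co-receptor genes Tdgf1 and Cfc1, the receptor gene Acvr2b, the antagonist genes Lefty1 and Lefty2, the nuclear partner gene Foxh1, and the homeobox genes Gsc and Mixl1. A gene was included when a probe carried its symbol in the platform's annotation, which held for 9 of the 10 members among 16444 named genes. Each of the 9 has 1 probe. No probe carried the symbol Lefty2, which was not analysed here. Of the 9, 8 gave a signal above background on both arrays, and Gdf3 did so on neither. The set was chosen by earlier readings of these same arrays, in which the log2 differences of Tdgf1, Gsc and Mixl1 stood out, so the values below describe the members and carry no test.

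RNA was measured on 2 one-colour oligonucleotide arrays, 1 per group. The gene-trapped sample came from mouse embryonic stem (ES) cells whose AU019823 gene was disrupted on both alleles, and the labels give 300000 cells for it. The revertant sample came from cells whose AU019823 genotype the labels call close to wild type, with 350000 cells. Both ES cell populations had been cocultured with OP9, a mouse bone marrow stromal line that favours blood formation, and cells with Flk-1 on their surface had been sorted as early mesoderm. The sample descriptions give day 4.5 and the treatment protocol gives 4 days of coculture. Where in the gene the trap lies is not stated. Each sample has its own code in the labels, with no explanation, and should the codes name clones, a difference of clone and one of genotype cannot be told apart. With 1 array per group there is no replicate check, no p-value and no SD between cultures, and every difference compares these 2 libraries only.

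Nodal is a secreted ligand of the TGF-beta family that starts the primitive streak, the site where mesoderm and endoderm form in the mouse embryo. It binds type I and type II activin receptors together with a co-receptor of the EGF-CFC family, Tdgf1 (also called Cripto) or Cfc1 (also called Cryptic). The receptors then phosphorylate SMAD2 and SMAD3, which enter the nucleus with SMAD4 and act on target genes with partners such as the forkhead factor FOXH1. Lefty proteins are targets of the pathway that block it from outside the cell.

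The members did not move together. In gene-trapped cells Mixl1, Tdgf1 and Gsc were 3.98-fold, 3.69-fold and 2.83-fold higher than in revertant cells, Cfc1 was 2.32-fold lower, and Nodal, Lefty1, Acvr2b and Foxh1 lay within 2-fold. These folds are of normalized signals, and a fixed size of 2-fold in either direction was used to count genes. At that size 3 of the 8 members above background were higher, beside 0.334% of all 13753 named genes above background on both arrays, and 1 was lower, beside 1.08% of them. The counts are given for description, because the members were chosen with these differences in view. The median log2 difference, gene-trapped minus revertant, was 0.20 over the 8 members and 0.01 over all named genes. Without Gsc and Mixl1, the other 6 members above background, 5 that carry or transmit the signal and the antagonist gene Lefty1, had a median log2 difference of -0.03.

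**Figure D1:**
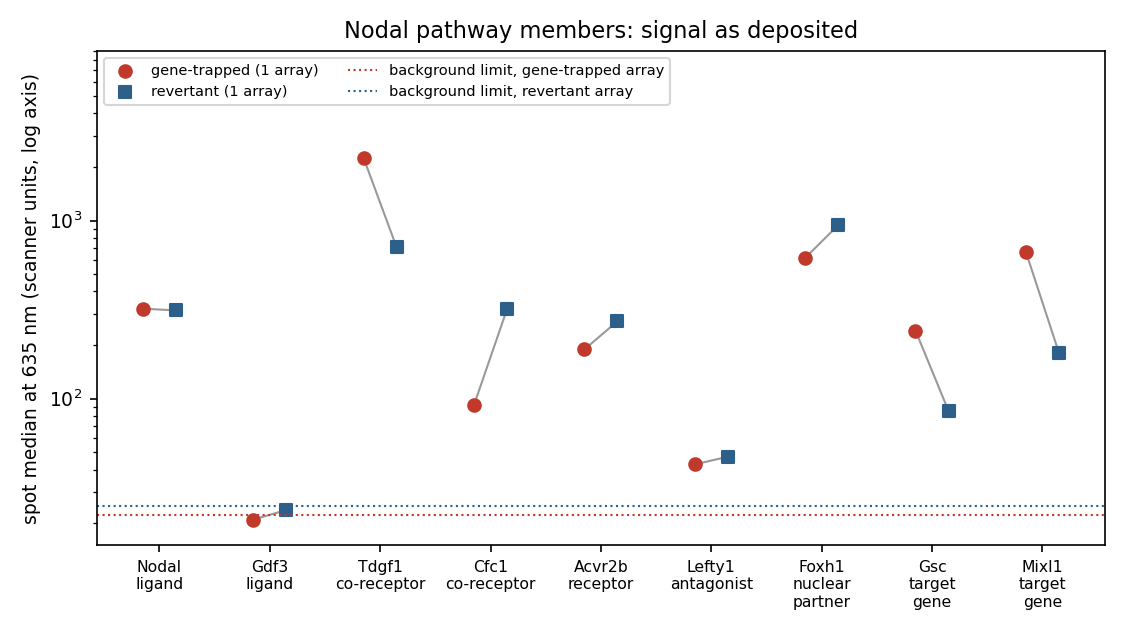
Spot median of each member, in scanner units on a log axis, with the gene-trapped array (red circles) left of the revertant array (blue squares) and dotted lines at each array's background limit. Tdgf1, Gsc and Mixl1 are higher on the gene-trapped array, Cfc1 is lower, and both points of Gdf3 lie under their limits of 22.3 and 25.0.

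Promoter sequence is shown for the 3 members that differed at least 2-fold and are held in the RefSeq promoter table, Tdgf1, Gsc and Cfc1. Each sequence runs 5′ to 3′ on the gene's strand in build GRCm38.p6, from 250 bases before the annotated start to 50 bases after it. Capitals mark letters that match AATNNACA, a pattern that includes the core FOXH1 is known to bind, or CAGAC, a motif known to be bound by SMAD proteins, on either strand.
Tdgf1, chr9:110946109-110946408, minus strand: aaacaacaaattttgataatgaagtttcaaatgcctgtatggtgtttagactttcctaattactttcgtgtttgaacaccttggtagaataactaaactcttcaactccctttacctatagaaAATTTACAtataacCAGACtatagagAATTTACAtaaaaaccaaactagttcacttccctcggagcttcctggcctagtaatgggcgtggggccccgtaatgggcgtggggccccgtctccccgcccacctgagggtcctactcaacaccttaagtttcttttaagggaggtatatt
Gsc, chr12:104473187-104473486, minus strand: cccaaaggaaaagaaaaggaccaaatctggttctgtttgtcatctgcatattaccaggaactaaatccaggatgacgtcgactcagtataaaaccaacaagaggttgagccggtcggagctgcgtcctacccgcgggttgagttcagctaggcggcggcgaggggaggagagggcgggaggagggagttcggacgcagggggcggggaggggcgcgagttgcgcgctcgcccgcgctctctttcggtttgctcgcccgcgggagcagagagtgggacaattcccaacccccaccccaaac
Cfc1, chr1:34535398-34535697, plus strand: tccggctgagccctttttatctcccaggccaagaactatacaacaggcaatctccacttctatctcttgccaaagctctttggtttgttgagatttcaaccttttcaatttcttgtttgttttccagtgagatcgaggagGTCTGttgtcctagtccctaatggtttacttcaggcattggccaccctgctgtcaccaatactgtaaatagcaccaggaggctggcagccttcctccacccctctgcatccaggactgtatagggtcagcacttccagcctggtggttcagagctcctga

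The Tdgf1 window held AATTTACA at -127 and again at -101 from the start, with CAGAC between them at -113. The Cfc1 window held 1 CAGAC, at -110 and on the opposite strand, and the Gsc window held none of the motifs. Both strands of 32851 promoter windows of the same length were searched. AATNNACA was found in 12.2%, CAGAC in 49.6%, and at least 2 AATNNACA together with CAGAC in 0.612%. The last combination was chosen after the Tdgf1 match was seen. The Tdgf1 window had 41.7% GC against a median of 52.7% over the windows, and these shares were not matched for base composition. The narrower FOXH1-type core AATCCACA, which is also an AATNNACA, and the SMAD-type palindrome GTCTAGAC were found in 0.855% and 0.213% of windows and in none of the 5 member windows in the table. The other windows were those of Acvr2b, with 1 CAGAC on the opposite strand at -233, and Nodal, with none of the motifs. A match describes letters only, and a window without one says nothing of the factor.

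Among the ligands, Nodal was detected on both arrays and Gdf3 was not. Nodal had a spot signal of 320 on the gene-trapped array and 313 on the revertant array, in scanner units. These raw values are nearly equal although the gene-trapped array was dimmer as a whole, with a median probe signal of 38.6 against 47.5 on the revertant array. After normalization Nodal had log2 signals of 8.60 in gene-trapped and 8.29 in revertant cells, a log2 difference of 0.32 (1.24-fold higher), and 9.22% of named genes had a larger difference. With the scanner's local background column subtracted the log2 difference of Nodal was 0.95. On the revertant array that column read 262 at the Nodal spot, so most of its signal of 313 was removed. Gdf3, a TGF-beta family ligand gene active in pluripotent cells, had spot signals of 20.9 on the gene-trapped and 23.7 on the revertant array, under the limits of 22.3 and 25.0, so no fold is given.

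The EGF-CFC co-receptor genes went opposite ways. Tdgf1 had a spot signal of 2249 on the gene-trapped array and 707 on the revertant array. Its log2 signals were 11.30 in gene-trapped and 9.41 in revertant cells, and its log2 difference of 1.88 had rank 5 from the highest among 13753 named genes. Cfc1, the other gene of the family, had a spot signal of 92.0 on the gene-trapped array and 319 on the revertant array. Its log2 signals were 7.09 in gene-trapped and 8.31 in revertant cells, a log2 difference of -1.21, with rank 78 from the lowest. The log2 differences of Tdgf1 and Cfc1 lay 3.10 apart, so the balance of the 2 probes changed 8.55-fold between the arrays. With the local background column subtracted Tdgf1 had a log2 difference of 3.33 and Cfc1 had -0.60, which is no longer 2-fold. At the Tdgf1 spot of the revertant array the local background read 690 against the spot signal of 707. The value of 3.33 therefore rests on a small remainder. The authors' processed table held 1902 and 450 for Tdgf1 in gene-trapped and revertant cells, a ratio of 4.23, and 61.3 and 195 for Cfc1, which was 3.17-fold lower.

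The receptor, antagonist and nuclear partner genes above background lay within 2-fold. Acvr2b, a type II activin receptor gene, had spot signals of 189 on the gene-trapped and 272 on the revertant array, with a log2 difference of -0.16. Foxh1 had 617 on the gene-trapped and 943 on the revertant array, with a log2 difference of -0.35 (1.28-fold lower). Lefty1, the feedback antagonist gene, had 42.7 on the gene-trapped and 47.2 on the revertant array, and its log2 difference was 0.09. Both of its signals were near the background limits, where the normalization offset shrinks differences. Foxh1 was the farthest from 0 of the 3, and 15.6% of named genes had a larger absolute difference. With the local background column subtracted Foxh1 had -0.68, Acvr2b -0.41 and Lefty1 -0.04.

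The homeobox genes Gsc and Mixl1, known targets of Nodal signalling in the streak, were both higher in gene-trapped cells. Mixl1, a paired-type homeobox gene of the streak, had a spot signal of 669 on the gene-trapped array and 181 on the revertant array. Its log2 signals were 9.57 in gene-trapped and 7.58 in revertant cells, and its log2 difference of 1.99 had rank 3 from the highest. Gsc, a homeobox gene of the anterior streak and organizer, had a spot signal of 241 on the gene-trapped array and 85.2 on the revertant array. Its log2 signals were 8.24 in gene-trapped and 6.74 in revertant cells, and its log2 difference of 1.50 had rank 12. The size of these differences depended on the background step. With the local background column subtracted Mixl1 had a log2 difference of 1.40 and Gsc had 0.91, under 2-fold, whereas the ratios in the authors' processed table were 5.32 for Mixl1 and 4.58 for Gsc.

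**Figure D2:**
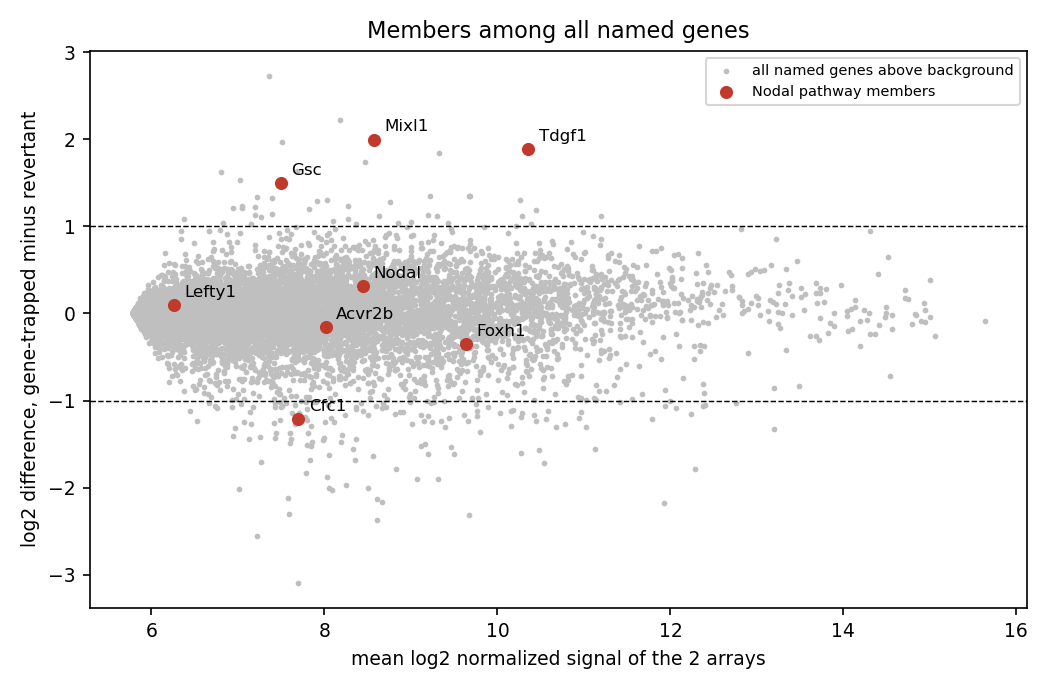
Log2 difference, gene-trapped minus revertant, against the mean log2 normalized signal of the 2 arrays for 13753 named genes (grey) and the 8 members above background (red), with dashed lines at 2-fold. Mixl1, Tdgf1 and Gsc lie at 1.99, 1.88 and 1.50 above the main cloud, and Cfc1 lies at -1.21 below it.

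**Figure D3:**
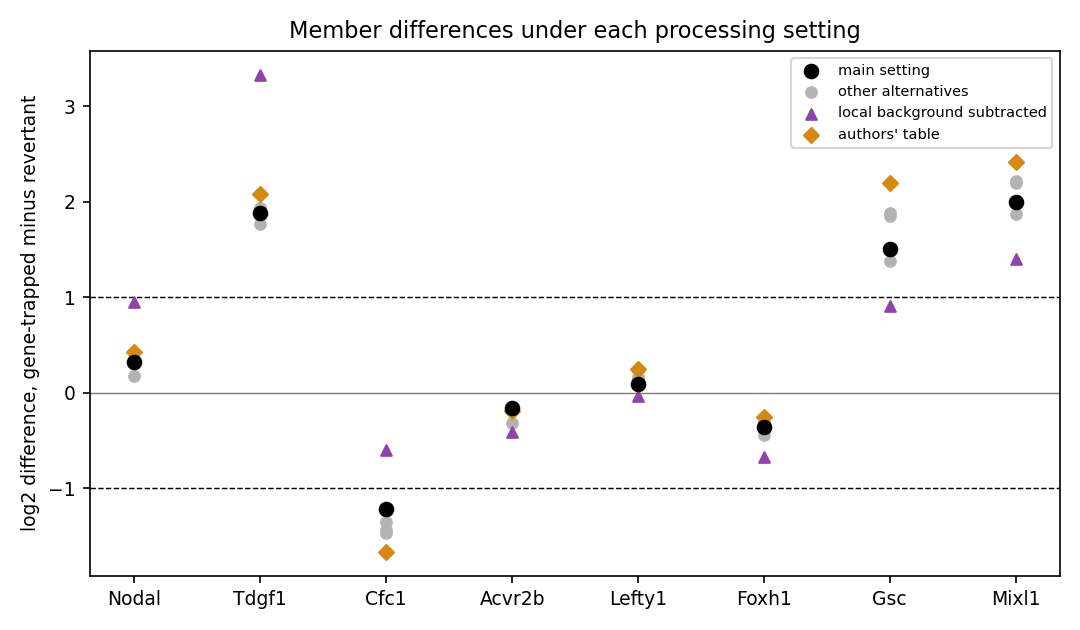
Log2 difference, gene-trapped minus revertant, of each member in the main setting (black) and 11 alternatives, with subtraction of the local background column (triangles) and the authors' table (diamonds) marked and dashed lines at 2-fold. The signs of Tdgf1, Gsc, Mixl1, Nodal, Cfc1, Acvr2b and Foxh1 are the same in all settings drawn, and Lefty1 lies between -0.04 and 0.25. Settings that change only the background filter or average probes repeat the main value.

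The 24 spots of each of 2 positive controls had SDs of the log2 difference between arrays of 0.107 and 0.0988. This is a spread between spots on bright controls and not between cultures, and it does not cover differences between cell populations. In RNA from a sorted population, fewer cells of a type and less RNA per cell cannot be told apart. The disrupted gene AU019823, named Nkapd1 by RefSeq, had spot signals of 297 on the gene-trapped and 486 on the revertant array and a log2 difference of -0.39. The place of its probe relative to the trap is unknown, so this value does not check the labels.

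For each member that differed at least 2-fold, the 3 genes with the nearest log2 difference and a mean log2 signal within 1 were taken. Genes with clone, predicted-model or similar provisional names were left out, as were those not above background on both arrays. This is a likeness over 2 arrays only. For Gsc these were Cdkn1a at 1.50, Arrdc4 at 1.53 and Ddit4l at 1.62. Mixl1 was nearest to Ccng1 at 1.85, Dcxr at 2.22 and Phlda3 at 1.74. Tdgf1 had no close match among the genes compared, and the nearest were Ncbp2 and H2afj at 1.35 and Etv2 at 1.30. For Cfc1 they were Igsf3 at -1.22, Rbpms at -1.22 and Hist1h2bp at -1.23, from 3731 genes of similar signal.

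The neighbours of these members on the chromosome were up to 2 measured protein-coding genes on each side in RefSeq order. Of the 14 neighbours of Tdgf1, Cfc1, Gsc and Mixl1 above background on both arrays, 0 were 2-fold apart. Their log2 differences ran from -0.29 to 0.32. Those of Tdgf1 and Cfc1 were dim, with gene-trapped spot signals from 23.3 (Amer3) to 36.9 (Lrrc2), near the limit of 22.3. The normalization offset shrinks differences at such signals. For Tdgf1 and Cfc1 the count therefore cannot show whether neighbours share a change. Mixl1 lies near Lefty2 and Lefty1 on chromosome 1. The measured genes between Mixl1 and Lefty1, Acbd3 and the histone gene H3f3a, had log2 differences of -0.24 and -0.29, against 1.99 for Mixl1 and 0.09 for Lefty1. On the other side of Mixl1, Parp1 had -0.29 and Lin9 had -0.04. Dicer1, the nearest measured gene on one side of Gsc, had 0.32.

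Other genes of the Nodal and activin pathway were taken from a list ordered by role. Of its 32 genes, 29 had a probe and 26 were above background on both arrays. Among the 26, 1 was higher by 2-fold or more, beside 0.334% of all named genes, and 0 were lower by that size, beside 1.08%. At a share of 1.08%, a count of 0 in 26 says little. Above 0 lay 17 of the 26, beside 53.3% of all named genes, and their median log2 difference was 0.10. The 15 genes outside the target group had a median of 0.01.

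Among the genes outside the target group, Smad4 and Fst had the largest differences. Smad4, the shared SMAD of the TGF-beta and BMP branches, had spot signals of 457 on the gene-trapped and 960 on the revertant array and a log2 difference of -0.77 (1.71-fold lower). Smad2 and Smad3, the activin branch SMADs, had log2 differences of 0.01 and -0.05. Fst, which encodes an inhibitor that binds activin, had 193 on the gene-trapped and 140 on the revertant array and a log2 difference of 0.69. The antagonist gene Dand5 had -0.10, and Cer1, which encodes an inhibitor that binds Nodal, was not well above background on either array. The activin subunit genes Inhba and Inhbb had log2 differences of -0.07 and 0.00. The receptor genes Acvr1b and Acvr2a had -0.05 and 0.14, and the proprotein convertase gene Furin had 0.06. Inhba, Inhbb, Acvr1b, Smad3 and Dand5 were dim, with gene-trapped spot signals from 25.8 (Inhba) to 33.4 (Smad3). The normalization offset shrinks differences at such signals. In the authors' processed table their log2 differences ran from -0.54 (Inhba) to -0.05 (Inhbb). Acvr1c was above background on the revertant array only, and Pcsk6 on neither. Nuclear regulators ran from -0.16 for Skil and 0.25 for Ski to 0.34 for Tgif1. Ski turned to -0.65 with the local background column subtracted.

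Of 11 known target genes above background, 9 lay above 0, beside 53.3% of all named genes, and 1 was at least 2-fold higher, beside 0.334%. Their median log2 difference was 0.39, against 0.01 over all named genes. The list was chosen with earlier results of these data known, so these counts and medians are given for description. Otx2, a homeobox gene of the anterior epiblast, had 311 on the gene-trapped and 141 on the revertant array and a log2 difference of 1.29, or 0.78 with the local background column subtracted. Lhx1, a homeobox gene of the anterior streak, had 537 on the gene-trapped and 341 on the revertant array, with a log2 difference of 0.87. T, the brachyury gene of the streak, had 188 on the gene-trapped and 129 on the revertant array, with 0.76. The T-box gene Eomes had a log2 difference of 0.48, Mesp1 0.51 and Wnt3 0.39. The inhibitor genes of the pathway that are also its targets, Pmepa1 (Tmepai in the annotation) and Smad7, had 0.35 and 0.17. Foxa2 and Sox17, endoderm genes induced by high Nodal activity, had spot signals of 27.2 and 28.3 on the gene-trapped and 27.4 and 41.1 on the revertant array, and log2 differences of 0.10 and -0.14. Fgf8 had -0.10. In the authors' processed table T and Lhx1 passed 2-fold, with ratios of 2.06 and 2.11, and the dim genes Foxa2 and Sox17 had log2 differences of 0.90 and -0.80.

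**Figure D4:**
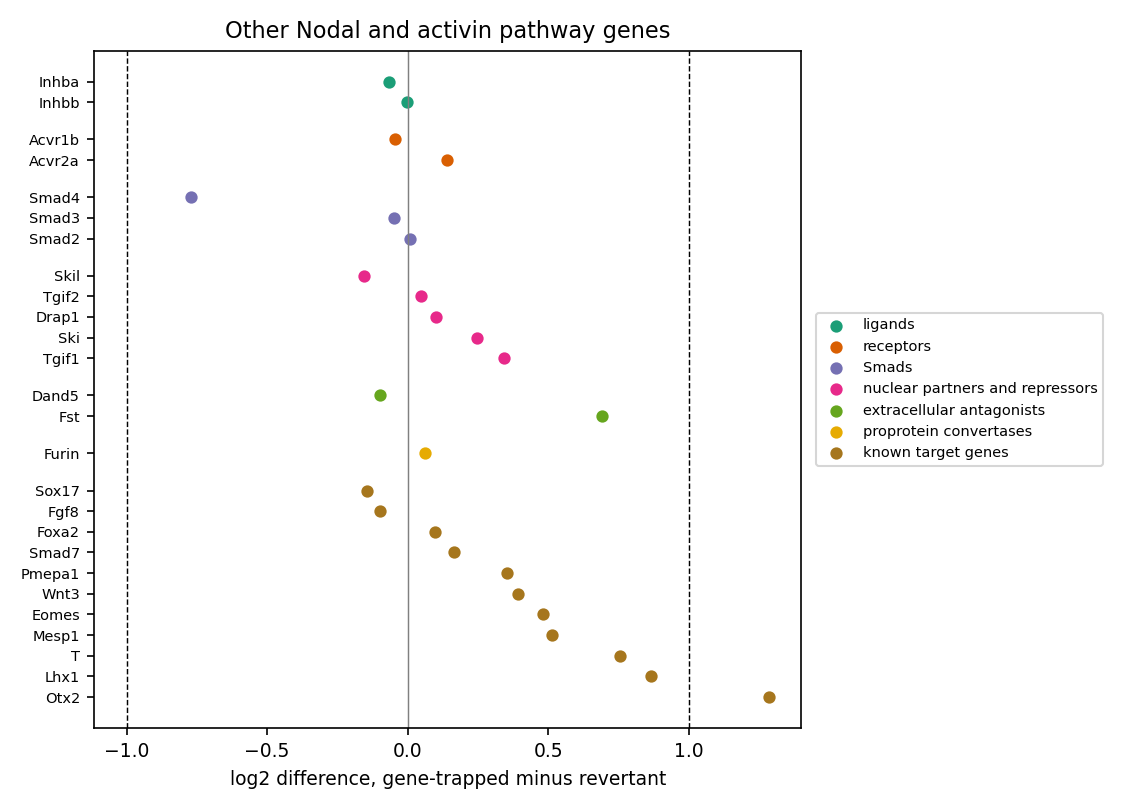
Log2 difference, gene-trapped minus revertant, of the 26 other pathway genes above background on both arrays, coloured by role, with dashed lines at 2-fold. Smad4 lies lowest at -0.77, Fst stands apart from the other genes outside the target group at 0.69, and the targets reach 1.29 at Otx2.

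Markers of the cell types the sorted population could hold were set beside these values, and their part in the member differences was not tested. The 9 mesoderm markers were all above background on both arrays, but so were 13753 of all 16444 named genes. Of the markers with a probe, 9 of 10 for OP9 stroma and 7 of 8 for ES cells also passed. For the anterior streak and endoderm 5 of 9 did. Detection alone therefore does not point to mesoderm. The mesoderm markers went both ways, with 4 above 0 and 5 below 0. At least 2-fold higher was 1 of them, beside 0.334% of all named genes. Their median log2 difference was -0.02. Their summed spot signals were 4307 on the gene-trapped and 4311 on the revertant array, and without Etv2 the other 8 summed to 2567 on the gene-trapped and 3501 on the revertant array. These are raw sums from arrays of unequal brightness, as are those of the lists that follow. Etv2, a transcription factor of blood and vessel precursors, had 1739 on the gene-trapped and 810 on the revertant array and a log2 difference of 1.30. Snai1 had 0.60, or 1.42 in the authors' processed table, and Mesp1 had 0.51. Of the lower genes, Hand1 had -0.44, Cdh2 -0.23, Foxf1 -0.10 and Pdgfra -0.02, and Hand1 turned to 0.14 with the local background column subtracted. Kdr, which encodes the sorted Flk-1 protein, had 537 on the gene-trapped and 1025 on the revertant array and a log2 difference of -0.65, or -2.04 with the local background column subtracted.

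Tdgf1 and Gdf3 are also genes of undifferentiated ES cells, so that marker list bears on them. Of its 10 genes, 8 had a probe and 7 were above background on both arrays, and Pou5f1 and Sox2 were not analysed here. Their summed spot signals were 1064 on the gene-trapped and 1382 on the revertant array, but without Klf4, which had 644 on the gene-trapped and 994 on the revertant array, the other 7 summed to 421 on the gene-trapped and 388 on the revertant array. Of the 7 above background on both arrays, 4 lay above 0 and 3 below 0, with a median log2 difference of 0.03. At least 2-fold higher was 1, beside 0.334% of all named genes. Nanog had 119 on the gene-trapped and 151 on the revertant array and a log2 difference of 0.03. Zfp42 and Esrrb had 0.12 and 0.07 near the background limit, and the dim genes Dppa3 and Tcl1 had -0.01 and -0.05. Fgf4 was not well above background on either array. Dppa5a, named Dppa5 in the annotation, had 149 on the gene-trapped and 62.0 on the revertant array and a log2 difference of 1.21, and Klf4 had -0.36. With the local background column subtracted Dppa5a had -0.08, Klf4 -1.57, past 2-fold, and Nanog -0.45. The authors' processed table gave Dppa5a 2.08, Zfp42 0.68, Esrrb 0.42, Dppa3 -0.09 and Tcl1 -0.29.

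Gsc is also a gene of the anterior streak and its endoderm, so that marker list bears on it. Lhx1 and T, streak genes counted with the targets, are not on this list and had log2 differences of 0.87 and 0.76. Of 9 with a probe, 5 were above background on both arrays, with log2 differences from -0.14 to 0.26, and Cer1, Foxa1, Ttr and Afp were not well above background on either array. Their summed spot signals were 1054 on the gene-trapped and 1105 on the revertant array, and without Gata6 the other 8 summed to 342 on the gene-trapped and 411 on the revertant array. Gata6 had 0.26, Gata4 0.21 and Foxa2 0.10, while Cxcr4 had -0.07 and Sox17 -0.14. Foxa2 and Sox17 were dim and had 0.90 and -0.80 in the authors' processed table. OP9 stromal markers were lower in gene-trapped cells at the collagen gene Col1a1 (-1.49) and the smooth muscle actin gene Acta2 (-1.30), and Col3a1 had -0.79 and Col1a2 -0.41. Of 9 above background on both arrays 6 lay below 0, beside 46.6% of all named genes, and 2 were at least 2-fold lower, beside 1.08%. The other 3 lay above 0, Cxcl12 at 0.20 and the dim genes Lum at 0.06 and Thy1 at 0.02. In the authors' processed table Col1a1 had -2.11 and Col3a1 -1.61, and Col3a1 had -0.12 with the local background column subtracted. Their summed spot signals, Dcn included, were 1767 on the gene-trapped and 4728 on the revertant array, and without Acta2 the other 9 summed to 572 on the gene-trapped and 1125 on the revertant array. Scaling to each array's 75th percentile put the median log2 difference of all named genes at 0.15, to which differences in that setting are relative.

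**Figure D5:**
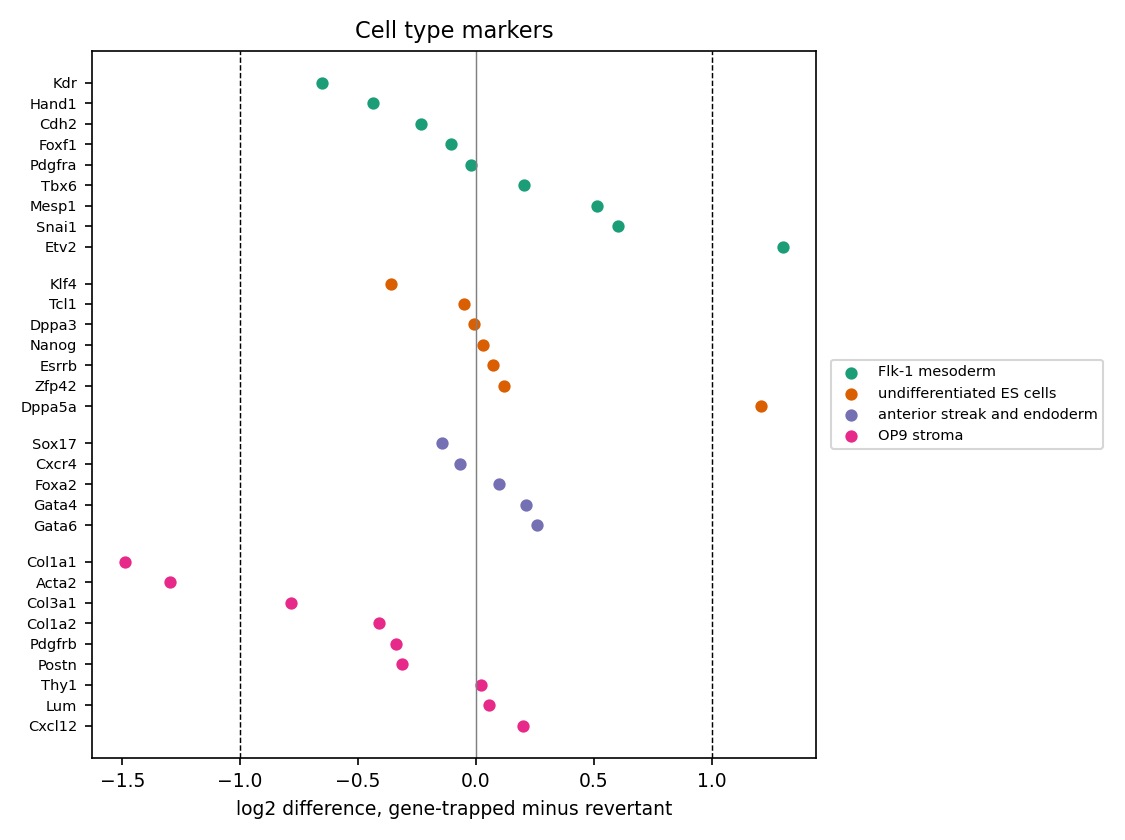
Log2 difference, gene-trapped minus revertant, of marker genes above background on both arrays for 4 cell types, coloured by list, with dashed lines at 2-fold. Etv2 (1.30) and Dppa5a (1.21) lie beyond 2-fold on the right, and Col1a1 (-1.49) and Acta2 (-1.30) on the left.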

How the data were processed

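The authors deposited a linear spot intensity for each array, a median over the spot that per the file headers combines 3 scanner gains by a least-squares line, and a table of processed intensity values with a median of 25 in each column. Amplified RNA was labelled with Cy5 per the labels' protocols. The scanner and its software are not named in them. The authors' table followed a straight rising line of the scanner values on each array, reaching 0 at spot signals of 20.1 on the gene-trapped and 22.4 on the revertant array, close to the blank means, so its scale is linear and its direction that of the scanner values.

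Intensities were corrected with normexp (offset 50) without subtracting the local background column, quantile-normalized and put on the log2 scale with limma 3.58.1 in R 4.3.3, on all 23471 probes, after 2 spots with a quality flag were left out. The offset shrinks the differences of dim genes. Background limits were the mean of 2736 blank spots plus 2 SD. The brightest probe per gene, by mean spot median, stood for a gene. Summaries used Python 3.11.15, numpy 2.4.6 and pandas 2.3.3. The normalization was tested on simulated data in which only bright probes were given changes, so the test does not cover dim genes. The number of arrays, 1 per group, limits the precision.

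Names came from the platform annotation, in which 16631 probes have 1 symbol and 0 have several, and 6842 of the probes used have none. List genes were also matched through RefSeq synonyms (GRCm38.p6). Named are all members, pathway genes with an absolute log2 difference of at least 0.5 and up to 3 others per role, up to 4 members of each marker list with the largest absolute difference, Kdr, and the 3 genes nearest to each member that differed 2-fold. Nanog, Dppa3, Tcl1, Cxcr4, Hand1, Cdh2, Foxf1, Pdgfra, Cxcl12, Lum and Thy1 were named after their values were seen. So were 4 further target genes, the chromosomal neighbours and the disrupted gene. Members, lists, the 2-fold rule and the 11 alternatives were chosen with earlier results of these data known. Protein sequences were not used here.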

Additional observations from a re-analysis of the deposited data

Results flagged for a closer look

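The column of local background readings, used here only as an alternative setting, held values far above those at blank spots where member spots were bright. At the Tdgf1 spot it read 1378 on the gene-trapped and 690 on the revertant array, and at the Mixl1 spot 402 on the gene-trapped and 130 on the revertant array, against blank spot medians of 15.6 on the gene-trapped and 14.2 on the revertant array.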

How the results depend on the processing

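No paired analysis was possible because there was a single array for either genotype. Across 11 alternatives Tdgf1 and Mixl1 were at least 2-fold higher in all, and Gsc in 10 and not with the local background subtracted (0.91). Cfc1 was at least 2-fold lower in 10. The alternatives that changed only the background filter or averaged probes repeat the main values of these genes. They are therefore no separate check of them. With the local background subtracted 0 members were 2-fold lower and 0 other pathway genes 2-fold higher, and Dppa5 turned to -0.079. The members' median was 0.43 with the local background subtracted, 0.34 in the authors' table and 0.093 with no filter, which adds Gdf3. The authors' table put 3 other pathway genes 2-fold higher. Over all named genes, 46 were higher and 148 lower in the main setting. Offset 16 gave 87 higher and 238 lower, no background correction 84 and 227, and local background subtraction 280 and 185, while 285 higher and 571 lower came from the authors' table. A smaller offset widens the differences of dim genes by construction, and otherwise the cause was not tested. Signal near background limits Lefty1, Foxa2, Sox17, Inhba, Inhbb, Acvr1b, Smad3, Dand5, Serpina3n and the neighbours of Tdgf1 and Cfc1.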
